A study of Homo sapiens with 3 samples.

Results

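The 45 genes described here encode the machinery that copies nuclear DNA and supplies its building blocks: the replicative helicase and the factors that load and activate it, the sliding clamp and its loader, the DNA polymerases, the enzymes that finish the new strand, the enzymes that make deoxynucleotides, and regulators that tie these steps to S phase. The members were chosen by name from what their products are known to do, and all 45 were found among the 24254 gene symbols of the deposited table. The mRNA was sequenced from LX-2 cells, an established human hepatic stellate cell line, to ask how recombinant human FGF19 (rhFGF19) acts on the cells that give rise to fibroblasts in liver metastases. There were 3 groups with 1 library each: LX-2 cells given vehicle, LX-2 cells given rhFGF19 at 50 ng/mL, and LX-2 cells given rhFGF19 at 100 ng/mL. The study's design gives 24 h of stimulation for both doses, whereas a free-text field of the sample records gives 72 h and 73 h and exchanges the doses, so the doses used here follow the sample titles. LX-2 is 1 line kept in culture, all libraries come from it, and nothing else in the labels separates the groups.

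In a dividing cell, the origin recognition complex together with CDC6 and CDT1 loads rings of MCM2 to MCM7 onto DNA in G1, and at the start of S phase CDC45 and GINS join the ring to form the active helicase. Polymerase alpha with primase starts each strand, replication factor C loads the PCNA clamp, polymerases delta and epsilon extend the strands, and FEN1 and DNA ligase I join the fragments of the lagging strand. Many of these genes are targets of E2F transcription factors, and hepatic stellate cells, which are quiescent in healthy liver, enter the cell cycle when they are activated.

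Each value is an FPKM, the fragments of a gene per kilobase of its transcript relative to all fragments mapped in that library. Levels are thus per length, but they also followed GC content, described below, which limits comparison between genes. A log2 fold change is a difference of log2(FPKM + 0.1) from the vehicle library, which understates the change of low genes. Symbols whose mean over the 3 libraries was 0.5 FPKM or more were compared, 12422 in all, and each of the 45 members was among them. More than 2-fold, the study's criterion, was used as the limit. With 1 library per condition no difference could be tested and none has a replicate check, and the FPKM values keep no read depth. The library totals were 302243, 276690 and 281606 FPKM for vehicle, 50 and 100 ng/mL, and 8891, 10929 and 10905 symbols had at least 1 FPKM. Both comparisons use the same vehicle library. Over all genes compared, the median log2 fold change was 0.62 at 50 and 0.62 at 100 ng/mL, so that a typical gene was already higher than in vehicle.

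Of 13 stellate and mesenchymal markers, 8 passed the filter, led by vimentin (VIM) at 439, 654 and 649 FPKM in the vehicle, 50 and 100 ng/mL libraries. The summed level of these 8 was 824, 991 and 991 FPKM. COL1A2, PDGFRA, DES, LRAT and GFAP were at or below 0.14 FPKM in every library, so these 5 stellate markers were near 0. Of 8 epithelial and hepatocyte markers only SERPINA1 and ALB passed, with a sum of 11.1, 12.1 and 11.0 FPKM. CDH1 was at or below 0.01 FPKM. Of 8 blood and endothelial markers only CD68 passed, at 47.5, 44.2 and 39.8 FPKM.

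The 6 subunits of the MCM helicase show at the level of sequence how unlike these otherwise related genes are in base composition, and base composition recurs below beside their fold changes. The stretch that encodes the ATP-binding Walker A motif is shown for 5 of them from GRCh38 (GENCODE v29), 5′ to 3′ on the coding strand, with the bases of the motif in capitals. All lie in coding exons: MCM2 in exon 10 (chr3:127616906-127616941, plus strand), MCM3 across the junction of exons 7 and 8 (chr6:52277170-52277541, minus strand), MCM5 in exon 9 (chr22:35413918-35413953, plus strand), MCM6 in exon 8 (chr2:135862612-135862647, minus strand) and MCM7 in exon 10 (chr7:100097332-100097367, minus strand).
MCM2: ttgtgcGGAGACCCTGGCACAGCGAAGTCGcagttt
MCM3: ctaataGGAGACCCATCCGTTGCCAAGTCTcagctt
MCM5: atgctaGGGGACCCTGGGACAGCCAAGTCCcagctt
MCM6: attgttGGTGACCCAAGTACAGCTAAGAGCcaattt
MCM7: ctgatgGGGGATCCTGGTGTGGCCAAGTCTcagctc
The GC content of the capitals was 70.8% in MCM5, 66.7% in MCM2, 62.5% in MCM7, 58.3% in MCM3 and 54.2% in MCM6. Transcript GC content was taken as the median over the transcripts the table lists for a gene, short ones included. It was 58.0% for MCM5, 57.9% for MCM2, 55.5% for MCM7, 51.6% for MCM3, 48.5% for MCM4 and 41.1% for MCM6. The median length of the listed transcripts was 663 bases for MCM5 and 2803 bases for MCM3.

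To show that the same promoter letters stood beside unlike values, 6 members are set beside one another by 60 bases upstream of their start that hold an E2F site, from RefSeq (GRCh38.p14), 5′ to 3′ on the strand of the gene. Capitals mark the letters searched for, which were TTTCCCGC, TTTGGCGC, TTTCGCGC or TTTGCCGC on either strand. The windows lie upstream of the gene in the deposited annotation: CDT1 (chr16:88803728-88803787, plus strand), GINS2 (chr16:85688955-85689014, minus strand), PCNA (chr20:5126648-5126707, minus strand), TYMS (chr18:657588-657647, plus strand), MCM6 (chr2:135876496-135876555, minus strand) and POLA1 (chrX:24693755-24693814, plus strand).
CDT1: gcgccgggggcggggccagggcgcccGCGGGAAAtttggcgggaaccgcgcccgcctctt
GINS2: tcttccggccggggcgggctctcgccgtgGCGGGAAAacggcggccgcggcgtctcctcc
PCNA: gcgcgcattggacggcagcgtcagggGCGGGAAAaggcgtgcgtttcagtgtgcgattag
TYMS: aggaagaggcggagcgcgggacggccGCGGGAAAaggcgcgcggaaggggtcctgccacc
MCM6: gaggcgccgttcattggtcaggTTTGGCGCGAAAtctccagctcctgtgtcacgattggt
POLA1: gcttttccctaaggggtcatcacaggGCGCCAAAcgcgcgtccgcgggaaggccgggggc
The first 4 windows share the same letters. Of these 4 genes, PCNA and TYMS were higher than in vehicle in both rhFGF19 libraries and CDT1 and GINS2 were lower, with the values given below. RFC3 and UHRF1 hold the same letters upstream of a start, and both were higher. MCM3 and LIG1 hold them on the opposite strand and were also above vehicle, LIG1 by only 0.10 and 0.01 on the log2 scale. The choice of 2 on each side thus shows the contrast and not its frequency. In the MCM6 window the capitals hold 2 overlapping matches.

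Of the 45 members, 26 exceeded vehicle by more than 2-fold at 50 ng/mL, or 57.8%, against 39.5% of all genes compared. At 100 ng/mL 24 did, or 53.3%, against 38.6%. The 24 were higher by that limit in both rhFGF19 libraries, against 36.3% of all genes. No member was more than 2-fold lower at either dose, where 1.75% and 1.47% of all genes were. The median log2 fold change of the members was 1.19 at 50 and 1.07 at 100 ng/mL, 1.13 with both averaged. The direction was not shared by all: 34 members were above vehicle in both rhFGF19 libraries, against 63.3% of all genes, 10 were below it in both, against 31.8%, and CDC45 had the same value in vehicle and at 50 ng/mL. By the averaged fold change, the 10 below vehicle became 9 when each library was rescaled to the same total and 14 with the median ratio of well-expressed genes set to 0, and 16 to 21 when trends on GC content or transcript length, described below, were removed. These are relative mRNA levels of whole cultures. More cells in S phase, more mRNA per cell and a property of the single vehicle library cannot be told apart in them.

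**Figure D1:**
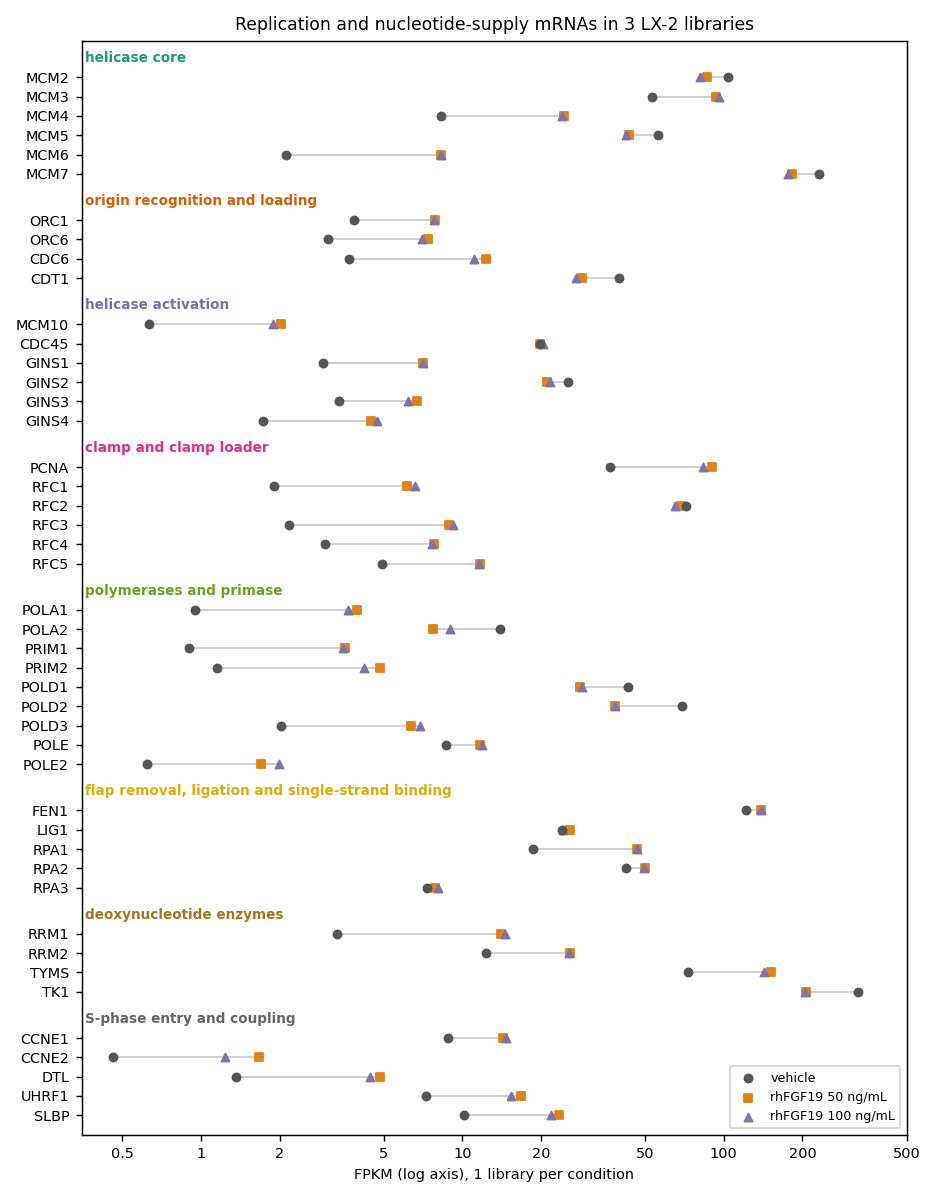
FPKM of the 45 members on a log axis, with 1 point per library (circle, vehicle; square, 50 ng/mL rhFGF19; triangle, 100 ng/mL) and the members ordered by role. The rhFGF19 points lie close to each other for every member, right of vehicle for 34 members, such as MCM6, RRM1, PCNA and FEN1, and left of it for 10, such as TK1 and MCM7.

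Of the helicase core, MCM6, encoded at chr2:135839626-135876443 in the deposited coordinates (ENSG00000076003), was the lowest subunit, at 2.11 FPKM in the vehicle library and 8.28 and 8.26 FPKM in the 50 and 100 ng/mL libraries, log2 fold changes of 1.92 and 1.92. Values below are given in the same order. MCM4 (ENSG00000104738) was at 8.27, 24.4 and 24.1 FPKM, log2 fold changes of 1.55 and 1.53. MCM3 (ENSG00000112118, chr6:52264014-52284881) was at 53.0, 93.2 and 95.4 FPKM, 0.81 and 0.85 on the log2 scale, which is under 2-fold. These 3 subunits were above vehicle in both rhFGF19 libraries, and the other 3 subunits of the ring were below it. MCM7 (ENSG00000166508, chr7:100092728-100101940), the most abundant at 231, 182 and 176 FPKM, had log2 fold changes of -0.34 and -0.39. MCM2 (ENSG00000073111, chr3:127598410-127622436) was at 104, 86.0 and 81.2 FPKM, differences of -0.28 and -0.36. MCM5 (ENSG00000100297, chr22:35400134-35424501) was at 56.1, 43.3 and 42.3 FPKM, differences of -0.37 and -0.41. The ring holds 1 copy of each subunit. The 3 subunits below vehicle with rhFGF19 were the 3 most abundant in the vehicle library. The division was narrow, since MCM3 and MCM5 had similar levels there and lay on opposite sides of vehicle with rhFGF19. The MCM7 gene also hosts the microRNA genes MIR25, MIR93 and MIR106B, listed at 5.55 FPKM or below.

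Of the origin recognition and loading factors, CDC6 (ENSG00000094804, chr17:40287879-40304657), the ATPase that recruits the helicase to the origin, was at 3.69, 12.3 and 11.0 FPKM, log2 fold changes of 1.71 and 1.55. ORC6, the smallest subunit of the origin recognition complex, was at 3.07, 7.39 and 7.01 FPKM, 1.24 and 1.17 on the log2 scale. ORC1, its subunit whose level varies with the cell cycle, was at 3.85, 7.85 and 7.79 FPKM, differences of 1.01 and 0.998. The second was just inside the limit on this scale, although the plain ratio of the FPKM values was 2.02. CDT1 (ENSG00000167513, chr16:88803789-88809258), which brings the helicase to the origin and is destroyed in S phase, differed from these 3. It was at 39.7, 28.6 and 27.3 FPKM, differences of -0.47 and -0.54.

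Of the factors that activate the loaded helicase, MCM10, which acts as CDC45 and GINS engage, was at 0.63, 2.02 and 1.89 FPKM, log2 fold changes of 1.54 and 1.45. CDC45 (ENSG00000093009, chr22:19479457-19520612) was at 19.8, 19.8 and 20.4 FPKM, 0.00 and 0.04 on the log2 scale. With the median ratio of well-expressed genes set to 0, the averaged difference of CDC45 became -0.20, and it was -0.54 with the trend on transcript GC content removed and -0.44 with that on length removed. GINS, a complex of 4 different subunits, also had subunits on both sides of vehicle. GINS4 was at 1.72, 4.45 and 4.72 FPKM and GINS1 at 2.93, 7.06 and 7.09 FPKM, both more than 2-fold above vehicle at each dose. GINS3 was at 3.38, 6.69 and 6.20 FPKM, differences of 0.96 and 0.86. GINS2 (ENSG00000131153, chr16:85676198-85688954), the most abundant of the 4, was at 25.3, 21.0 and 21.7 FPKM, differences of -0.27 and -0.23.

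Of the clamp and its loader, 5 of 6 members passed the limit in both rhFGF19 libraries, against 36.3% of all genes. The median transcript GC content of these 6 was 44.8%. RFC1, RFC3 and RFC4 lay from 35% to 45% GC, where 81.6% of all genes passed. PCNA, at 45.2%, lay from 45% to 50%, where 52.8% passed. RFC5 and RFC2, at 51.0% and 52.9%, lay from 50% to 55%, where 17.5% passed. PCNA (ENSG00000132646, chr20:5114953-5126626), the ring that tethers polymerases to DNA, was at 36.8, 90.4 and 83.5 FPKM, log2 fold changes of 1.29 and 1.18. RFC3 (ENSG00000133119, chr13:33818069-33966558) was at 2.17, 8.92 and 9.21 FPKM, differences of 1.99 and 2.04, the highest of the loader. RFC1, its large subunit, was at 1.90, 6.12 and 6.61 FPKM, differences of 1.64 and 1.75. The other small subunits above vehicle were RFC4, at 2.99, 7.77 and 7.66 FPKM, and RFC5, at 4.91, 11.7 and 11.6 FPKM. RFC2 (ENSG00000049541, chr7:74231499-74254407) stood apart from the other 4 subunits of the loader at 71.4, 68.7 and 64.8 FPKM. Its differences were -0.06 and -0.14, and their mean turned positive when each library was rescaled to the same total, at 0.018, and under quantile normalization, at 0.11.

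Among the polymerases, the 4 subunits of the polymerase alpha and primase complex had averaged log2 fold changes from -0.74 to 1.89. PRIM1, the catalytic primase subunit, was at 0.90, 3.56 and 3.50 FPKM, PRIM2, the large primase subunit, at 1.15, 4.84 and 4.20 FPKM, and POLA1 (ENSG00000101868, chrX:24693909-24996986), the catalytic polymerase subunit, at 0.95, 3.95 and 3.64 FPKM. The averaged log2 fold changes of these 3 were 1.86, 1.88 and 1.89. POLA2 (ENSG00000014138, chr11:65261920-65305589), the subunit that tethers the others, was at 13.9, 7.74 and 8.98 FPKM, differences of -0.84 and -0.63. The POLA2 locus overlaps a gene on the same strand, AP000944, listed at 21.3, 33.0 and 29.1 FPKM, and PRIM1 overlaps NACA on the same strand, so reads of these pairs may have been divided between them. Polymerase delta, which extends the lagging strand, was also divided: its accessory subunit POLD3 was at 2.03, 6.38 and 6.88 FPKM, differences of 1.61 and 1.71. POLD1, the catalytic subunit, was at 43.0, 28.1 and 28.7 FPKM, differences of -0.61 and -0.58. POLD2 (ENSG00000106628, chr7:44114681-44123668) was at 69.3, 38.2 and 38.2 FPKM, differences of -0.86 and -0.86, the lowest of the 45 members. Of polymerase epsilon, which extends the leading strand, the catalytic subunit POLE was at 8.69, 11.7 and 11.9 FPKM, differences of 0.43 and 0.45. Its partner POLE2 was at 0.62, 1.70 and 1.99 FPKM, differences of 1.32 and 1.54.

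The enzymes that complete the lagging strand and the proteins that coat single-stranded DNA were the role group with the lowest median, 0.20. FEN1, the flap endonuclease, was at 121, 139 and 139 FPKM, differences of 0.20 and 0.19, which became -0.027 on average with the median ratio of well-expressed genes set to 0. LIG1, DNA ligase I, was at 24.0, 25.7 and 24.2 FPKM, differences of 0.10 and 0.01, which became -0.17 under that scaling. The ratio to vehicle was 1.15 and 1.14 for FEN1 and 1.07 and 1.01 for LIG1. Of replication protein A, the trimer that protects single strands, RPA1 was at 18.6, 46.6 and 46.6 FPKM, a difference of 1.32 at each dose. RPA2 was at 42.1, 49.9 and 49.6 FPKM, differences of 0.24 and 0.23, which averaged -0.50 with the trend on transcript GC content removed and -0.18 with that on length removed. RPA3 (ENSG00000106399, chr7:7636518-7718607) was at 7.32, 7.83 and 8.07 FPKM, differences of 0.10 and 0.14, which turned negative under that scaling, at -0.11, and under quantile normalization, at -0.31. FEN1 overlaps FADS2 on the same strand, listed at 69.0, 59.1 and 57.2 FPKM.

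The enzymes of deoxynucleotide supply included the highest fold change and the highest level of all members. RRM1 (ENSG00000167325, chr11:4094707-4138875), the large subunit of ribonucleotide reductase, which turns ribonucleotides into deoxyribonucleotides, was at 3.32, 14.1 and 14.6 FPKM, log2 fold changes of 2.05 and 2.10. RRM2 (ENSG00000171848, chr2:10120698-10210597), its small subunit, was at 12.3, 25.7 and 25.6 FPKM, differences of 1.06 and 1.05. TYMS (ENSG00000176890, chr18:657653-673578), thymidylate synthase, which makes thymidylate from deoxyuridylate, was at 72.7, 152 and 143 FPKM, differences of 1.06 and 0.97. Both de novo steps were therefore near or above 2-fold of vehicle, while TK1, the only salvage enzyme among the members, was below it. Among the members the salvage side of this contrast rests on TK1 alone. DCK, a salvage kinase that is no member, named after its values were seen, was above vehicle at 3.33, 7.91 and 9.11 FPKM. With the trend on transcript GC content removed, RRM1 averaged 0.66, TYMS 0.65, RRM2 -0.01 and TK1 -0.28. TK1 (ENSG00000167900, chr17:78174091-78187233), thymidine kinase 1, was at 326, 206 and 204 FPKM, differences of -0.66 and -0.68. The pseudogenes RRM2P2 and RRM2P3, which could share reads with RRM2, were listed at 0.05 FPKM or below.

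Of the regulators of S-phase entry and coupling, 4 of 5 passed the limit in both rhFGF19 libraries, against 36.3% of all genes. CCNE2 and DTL lay from 35% to 45% GC, where 81.6% of all genes passed. CCNE1 and SLBP lay from 45% to 50%, where 52.8% did, and UHRF1 above 55%, where 2.75% did. DTL, the substrate receptor of the ubiquitin ligase that removes CDT1 in S phase, was at 1.36, 4.85 and 4.43 FPKM, log2 fold changes of 1.76 and 1.63. UHRF1 (ENSG00000276043, chr19:4903080-4962154), which brings the maintenance DNA methyltransferase to newly copied DNA, was at 7.25, 16.7 and 15.3 FPKM, differences of 1.19 and 1.07. SLBP, which binds the stem loop of histone mRNAs, was at 10.2, 23.4 and 21.9 FPKM, an averaged difference of 1.15. The cyclins that drive CDK2 at the start of S phase were CCNE1, at 8.83, 14.3 and 14.7 FPKM, and CCNE2, at 0.46, 1.66 and 1.24 FPKM. CCNE1 was under 2-fold, with differences of 0.69 and 0.73, and CCNE2, which passed the filter only through its values with rhFGF19, was above it, with 1.65 and 1.26.

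The levels of subunits of the same complex were closer to each other in both rhFGF19 libraries than in vehicle, with 1 exception. In the MCM ring the highest subunit, MCM7, had 109 times the FPKM of the lowest, MCM6, in vehicle, 21.9 times at 50 and 21.3 times at 100 ng/mL. For GINS the ratio was 14.7, 4.72 and 4.59. For replication factor C it was 37.6, 11.2 and 9.81, from RFC2 to RFC1. In the polymerase alpha and primase complex POLA2 had 15.5 times the FPKM of PRIM1 in vehicle and 2.17 and 2.57 times with rhFGF19, the most even of the complexes of more than 2 members. For polymerase delta the ratio was 34.1, 5.99 and 5.55, for polymerase epsilon 14.02, 6.89 and 5.98, and for ribonucleotide reductase 3.71, 1.82 and 1.76. The exception was replication protein A, with 5.75 in vehicle and 6.37 and 6.14 with rhFGF19. In these complexes the highest and the lowest subunit were the same ones in all 3 libraries. The ratios were not adjusted for the GC content of the subunits. A narrower range was also seen over all genes: the SD of the log2 level over the 12359 genes at 0.1 FPKM or more in every library was 2.55 in vehicle, 2.10 at 50 and 2.10 at 100 ng/mL. Over the 45 members it was 2.46, 1.81 and 1.81.

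**Figure D2:**
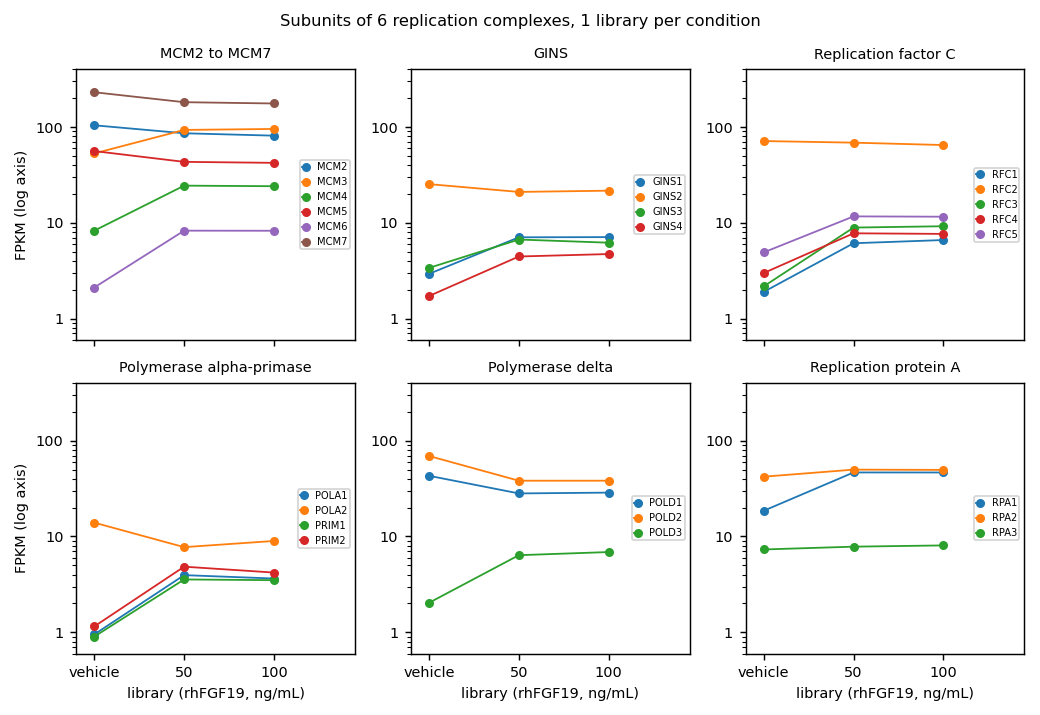
FPKM on a log axis of the subunits of 6 replication complexes in the vehicle, 50 and 100 ng/mL rhFGF19 libraries, with 1 point per subunit and library. The lines draw together from vehicle to rhFGF19 in 5 complexes, from a range of 109-fold to about 21-fold in the MCM ring, and not in replication protein A.

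The rhFGF19 libraries were close to each other for every member. The difference of 100 from 50 ng/mL had a median of -0.01 on the log2 scale, none of the 45 members passed 2-fold, against 1.63% of all genes, and its median size was 0.047 against 0.0886 over all genes. The widest was CCNE2, the member of the lowest level, at -0.39. The dose labels of these libraries are the ones that the sample records exchange, so the sign of these differences rests on the titles.

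The fold changes of the members followed the GC content of their transcripts. Across the 45 genes, Pearson's r was -0.81 and Spearman's rho was -0.83 between the averaged log2 fold change and transcript GC content, and -0.76 and -0.81 with the GC content of the coding sequence alone. Across all 12374 compared genes with a GC content, r was -0.75 and rho was -0.78. These are descriptions across genes, which are not independent replicates and share the same 3 libraries. Of the 14 members below 45% GC, 13 were more than 2-fold higher in both rhFGF19 libraries (92.9%), where 81.6% of all genes in that range were. Of the 10 members from 45% to 50% GC, 8 were, against 52.8% of all genes in that range. Of the 11 from 50% to 55%, 2 were (18.2%), GINS4 and RFC5, against 17.5%. Of the 10 above 55%, UHRF1 alone was, against 2.75%, and 7 were below vehicle in both rhFGF19 libraries, where 68.9% of all genes in that range were. The difference of 100 from 50 ng/mL did not follow GC content in this way, with an r of 0.064 over the members. The level in vehicle had an r of 0.77 with transcript GC content over the members, and the levels at 50 and 100 ng/mL had 0.64 and 0.65. Over all genes these were 0.47, 0.23 and 0.23. The averaged fold change also followed the log2 level in vehicle, which is itself part of the fold change. Over the members r was -0.80 and rho was -0.82, and over all genes they were -0.60 and -0.60. GC content and level in vehicle were not separated here. The part of base composition in the fold changes was not tested beyond the removal of its trend, and with 1 vehicle library a property of that library and an effect of rhFGF19 cannot be told apart.

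**Figure D3:**
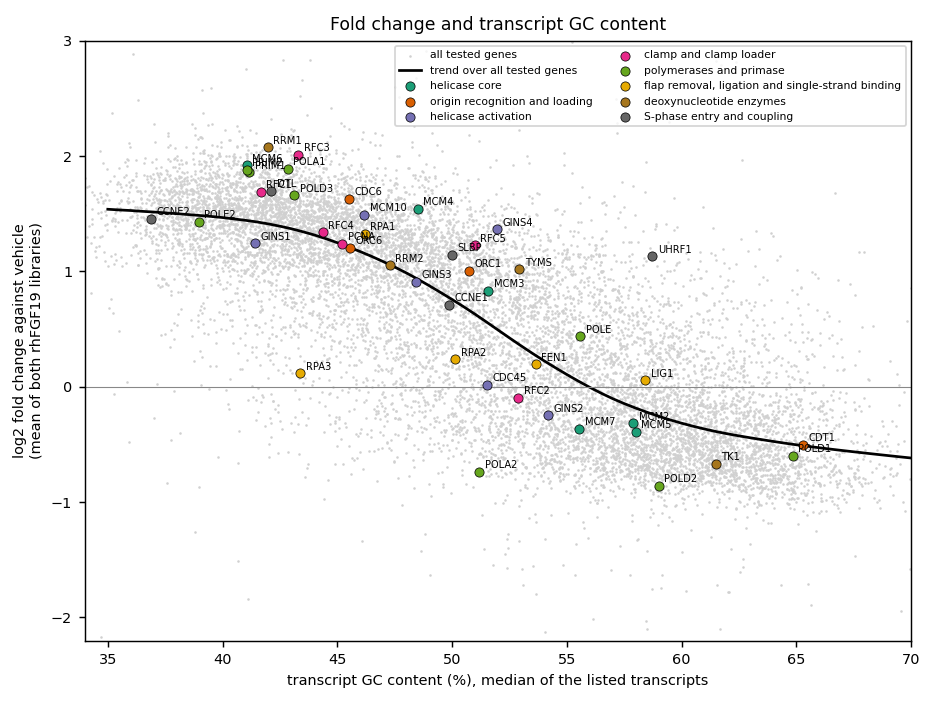
Averaged log2 fold change against vehicle, over both rhFGF19 libraries, and transcript GC content in percent for all genes compared (grey; a few lie outside the axes) and the 45 members (coloured by role and named), with the locally weighted trend over all genes as a black line. Most members lie along the line, UHRF1 lies 1.37 above it, and POLA2 and RPA3 lie 1.34 and 1.23 below it.

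Once the trend of all genes on transcript GC content was removed, the median of the members was 0.046 on the log2 scale, and the SD over the members was 0.51 in place of 0.88. Over all genes the SD was 0.58 in place of 0.90. In both rhFGF19 libraries 23 members lay above genes of their GC content, against 44.9% of all genes, and 16 lay below, against 43.8%. In both rhFGF19 libraries, 1 member, UHRF1, remained more than 2-fold higher than genes of its GC content, against 2.55% of all genes, and POLA2 and RPA3 were more than 2-fold lower, against 3.38%. UHRF1, with 58.7% GC, lay 1.37 above on average, where genes of its GC content had an averaged log2 fold change of -0.24. POLA2 was at -1.45 and -1.23, and RPA3, with 43.4% GC, averaged -1.23, where genes of its GC content had 1.35. The opposite-strand neighbour of RPA3, UMAD1, was listed at 0.77 FPKM or below. With the trend on coding GC content removed in its place, an alternative chosen after seeing the data, UHRF1 was at 1.45, POLA2 at -1.62 and RPA3 at -1.31. Next to UHRF1 came GINS4 at 0.87, RRM1 at 0.66, RFC3 at 0.66 and TYMS at 0.65, and with coding GC content GINS4 was at 0.41 and TYMS at 0.47. PCNA and RRM2, both more than 2-fold above vehicle, were at 0.00 and -0.01 from genes of their GC content, and CDT1, below vehicle, was at 0.01.

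**Figure D4:**
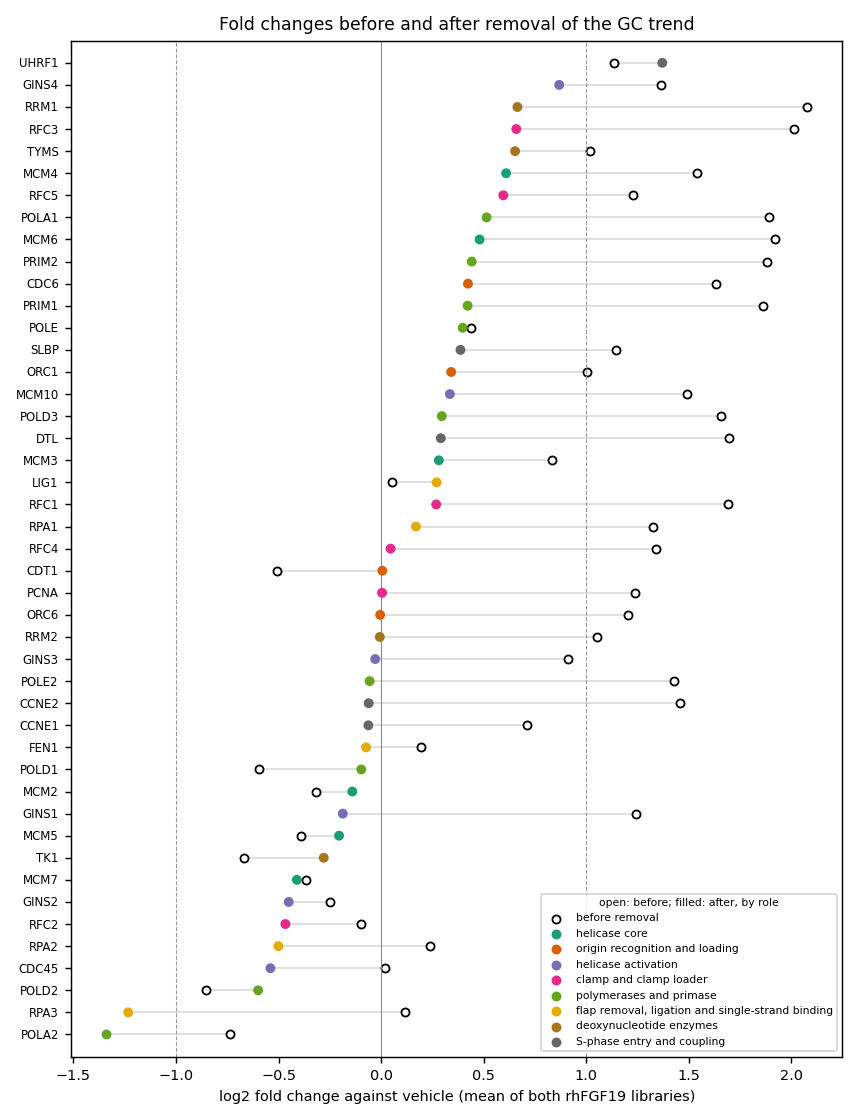
Averaged log2 fold change against vehicle of the 45 members before (open circles) and after (filled circles, coloured by role) removal of the trend on transcript GC content, ordered by the latter. The dashed lines mark 2-fold; after removal UHRF1 lies above 1 and POLA2 and RPA3 lie below -1.

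In RefSeq, promoters from 250 bases before to 50 after a start were found for 38 of the 45 members, 49 in all. The E2F letters printed above, on either strand, were in 20 of the 49 (40.8%), against 3.31% of all 35116 promoters of the same length. The CCAAT letters, on either strand, were in 59.2% of the member promoters against 34.6% of all, and the cell cycle homology region letters TTTGAA, on either strand, were in 2.04% against 15.2%. The TTTGAA letters were found in the promoter of RRM1 alone. The member promoters had a median GC content of 67.3% against 58.7% of all. The 19 members with E2F letters in a promoter were found on both sides: 9 were more than 2-fold higher in both rhFGF19 libraries and 5 were below vehicle in both, with a median log2 fold change of 1.02. Of the 19 without these letters, 11 were more than 2-fold higher and 4 were below vehicle, with a median of 1.15. Of all genes compared, 36.3% were more than 2-fold higher in both rhFGF19 libraries and 31.8% were below vehicle in both. A match is a run of letters and no measured binding, and no match says only that the letters are not in the window.

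Among other genes of the same pathways, which are no members, values also lay on both sides of vehicle. The shares below can be read against all genes compared, of which 36.3% were more than 2-fold higher in both rhFGF19 libraries and 31.8% were below vehicle in both. Some genes counted, listed or not, were below 0.5 FPKM in vehicle. These passed the filter only through their values with rhFGF19. Of 30 other origin and fork genes, 27 passed the filter. Among them 17 (63.0%) were more than 2-fold higher in both rhFGF19 libraries and 6 (22.2%) were below vehicle in both, with a median of 1.45. The 3 highest were DNA2, a nuclease and helicase of lagging-strand processing, at 0.16, 1.05 and 1.14 FPKM, which passed the filter only through its values with rhFGF19, ORC3 at 0.98, 4.43 and 3.89 FPKM, and WDHD1, which links the helicase to polymerase alpha, at 0.88, 3.97 and 3.24 FPKM. The 3 lowest were POLE4 at 79.5, 41.7 and 47.1 FPKM, POLD4, the fourth subunit of polymerase delta, at 46.9, 26.8 and 27.0 FPKM, and RNASEH2A, which removes RNA from RNA-DNA hybrids, at 102, 57.9 and 61.7 FPKM. POLE3, another small subunit of polymerase epsilon, named after its values were seen, was above vehicle at 57.8, 92.8 and 96.0 FPKM, so that the small subunits of polymerase epsilon lay on both sides.

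Of 30 other genes of nucleotide synthesis, all passed. Among them 13 (43.3%) exceeded 2-fold in both rhFGF19 libraries and 11 (36.7%) were below vehicle in both, both near the shares of all genes, with a median of 0.83. The highest were PAICS (2.39, 8.93 and 8.57 FPKM) and PPAT (0.56, 2.09 and 2.20 FPKM), enzymes of de novo purine synthesis, and RRM2B (0.43, 1.78 and 1.49 FPKM), the alternative small subunit of ribonucleotide reductase. RRM2B passed the filter only through its values with rhFGF19. The lowest were the kinases GUK1 (44.4, 24.8 and 24.5 FPKM) and DTYMK (50.7, 29.6 and 32.5 FPKM), which phosphorylate guanylate and thymidylate, and IMPDH1 (50.3, 31.8 and 31.8 FPKM), of guanine nucleotide synthesis. DTYMK acts after TK1 and TYMS in the same path, and was below vehicle like TK1 and unlike TYMS.

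Of 31 E2F and G1/S regulators, 29 passed. Among them 15 (51.7%) exceeded 2-fold in both rhFGF19 libraries and 7 (24.1%) were below vehicle in both, with a median of 1.03. The lowest were CDK4 (280, 161 and 168 FPKM), the cyclin D kinase, CDKN1A (146, 87.3 and 89.8 FPKM), the p21 inhibitor of CDKs, and E2F1 (144, 92.6 and 93.0 FPKM). The highest were RBL1 (1.01, 3.74 and 3.64 FPKM) and RB1 (1.73, 6.30 and 5.60 FPKM), whose products hold E2F factors in check, and FBXO5 (1.51, 4.98 and 5.24 FPKM), an inhibitor of the anaphase-promoting complex. E2F1, an activator of S-phase genes, and CDKN1A, an inhibitor of S-phase entry, were thus on the same side, and RB1, which binds E2F1, was on the other. The transcript GC content of E2F1, CDKN1A and RB1 was 62.5%, 60.7% and 40.1%. With the GC trend removed they averaged -0.21, -0.37 and 0.26.

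Of 12 genes of replication-coupled chromatin assembly, 7 (58.3%) were more than 2-fold higher in both rhFGF19 libraries and 1, the histone chaperone gene ASF1B at 115, 83.2 and 86.8 FPKM, was below vehicle in both, with a median of 1.49. Its paralog ASF1A was the highest, at 0.82, 2.97 and 3.27 FPKM. The others named by rank were RBBP4 (2.83, 9.61 and 10.1 FPKM) and SUPT16H (4.77, 16.1 and 14.7 FPKM) at the upper end and CHAF1A (10.2, 14.3 and 14.4 FPKM) and SSRP1 (63.8, 95.0 and 92.9 FPKM) at the lower. SUPT16H and SSRP1 encode the subunits of the FACT chaperone, and the less abundant of them in vehicle had the higher fold change. Of 32 mitosis genes, taken for comparison, 24 (75.0%) were more than 2-fold higher in both rhFGF19 libraries and 3 (9.38%) were below vehicle in both, with a median of 1.41. The highest were NDC80 (1.67, 6.79 and 7.44 FPKM), ANLN (5.42, 21.7 and 20.9 FPKM) and ECT2 (1.40, 6.03 and 5.22 FPKM). The lowest were PLK1 (54.6, 38.1 and 40.4 FPKM), CDC20 (142, 104 and 103 FPKM) and AURKB (70.3, 55.2 and 57.3 FPKM). After removal of the GC trend the medians were 0.14 for the origin and fork genes, -0.16 for nucleotide synthesis, 0.26 for the E2F and G1/S regulators, 0.28 for chromatin assembly and 0.23 for mitosis, so that nucleotide synthesis was the 1 list of these 5 below 0.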

How the data were processed

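Poly(A) mRNA of LX-2 cells was sequenced in paired-end mode, 1 library per condition. The authors deposited 1 FPKM value per gene and library, to 2 decimals, for 26108 genes. The submitters' processing notes name Bowtie 0.12.2, HISAT2 2.0 and StringTie 1.3.0, of which the methods credit HISAT2 with the mapping, and which program made the FPKM values is not given in the sources used here. Whether counting used strand is not given either, so that reads of overlapping genes cannot be told apart. The notes list the builds hg19 and mm8, but the coordinates overlapped GRCh38 positions in GENCODE v29 for 99.7% of 25531 identifiers, all 45 members included. The deposited FPKM values keep no counts, so no depth, interval or count test was available.

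Rows sharing a symbol were summed (each member has 1 row). Single libraries were compared as log2(FPKM + 0.1) over symbols averaging 0.5 FPKM or more, with no p-value. Trends on GC content (found for 99.6% of the symbols compared) were fitted by local regression (span 0.3). The removal was tried only on simulated data with a straight GC slope and less scatter than these data, whose trend is curved. Members and lists were chosen with earlier results of these data known. All members are named by role, and of each other list the 3 highest and 3 lowest averaged fold changes. Alternatives were other pseudocounts, filters, scalings, thresholds, handling of shared symbols and removal of GC or length trends. Transcript length was likewise the median over the listed transcripts, short ones included. Python 3.11.15 with NumPy 2.4.6, pandas 2.3.3, statsmodels 0.14.6 and Matplotlib 3.10.9 was used.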

Additional observations from a re-analysis of the deposited data

How the results depend on the processing

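No paired analysis was possible because each condition had 1 library and no test was made. Across all alternatives the median log2 fold change of the members stayed above 0, as did the median of all genes compared except at -0.0021 with both trends removed. Against 1.13 for the members and 0.62 for all genes, the medians were 0.86 and 0.41 with a pseudocount of 1, 1.26 and 0.80 rescaled to TPM, 0.91 and 0.40 with the median ratio of well-expressed genes set to 0, 0.57 and 0.073 under quantile normalization, and 0.68 and 0.043 once the length trend was removed. The median of the members was 0.046 with the transcript GC trend removed, 0.099 with the GC and then the length trend removed, and 0.10 with the coding GC trend removed, which was chosen after seeing the data. The 24 members more than 2-fold higher in both rhFGF19 libraries became 8 under quantile normalization, 10 without the length trend and 1 under each of the 3 settings that remove a GC trend, and were 18 to 26 under the other settings at 2-fold. At a limit of 1.5-fold there were 29. Of all genes compared, 36.3% passed 2-fold in both at the main setting, 6.72% under quantile normalization and 2.55% with the transcript GC trend removed. With a pseudocount of 1, 18 members and 14.9% of all genes passed. Rescaled to TPM, 26 members and 41.0% of all genes did. The median difference of 100 from 50 ng/mL lay within -0.036 and 0.0015 throughout. Of the members past 2-fold, those that turned negative did so only with a GC trend removed: by transcript GC, ORC6 at -0.0051, GINS1 at -0.19, POLE2 at -0.056, RRM2 at -0.0066 and CCNE2 at -0.061; by GC and then length, GINS1 at -0.091 and CCNE2 at -0.18; by coding GC, ORC6 at -0.031, GINS1 at -0.20, PCNA at -0.049, RFC4 at -0.14, POLE2 at -0.082 and CCNE2 at -0.077. The unknown depth limits the members at or below 1 FPKM in vehicle most, MCM10, POLA1, PRIM1, POLE2 and CCNE2.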

Other observations

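The deposited table carries pathway annotation of its own, which was examined after the values of the members had been seen. Of 158 genes annotated there with DNA replication, 147 passed the filter, and the 108 of these that are no members had a median log2 fold change of 1.07, with 53 (49.1%) more than 2-fold above vehicle in both rhFGF19 libraries and 20 (18.5%) below it in both. Of 35 genes in the KEGG pathway of DNA replication, 34 passed, with a median of 0.69, of which 14 (41.2%) were more than 2-fold above vehicle and 11 (32.4%) were below it in both, near the 36.3% and 31.8% of all genes compared. The 8 of these 34 that are no members had a median of -0.04, with 1 more than 2-fold above vehicle in both and 4 below it.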
